A study of Mus musculus with 2 samples.

Results

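The genes described here are 10 genes of the Notch pathway: the receptor genes Notch1, Notch2, Notch3 and Notch4, the ligand genes Jag1, Jag2 and Dll1, the DNA-binding factor gene Rbpj, and the target genes Hes1 and Hey1. They were chosen by gene symbol, and all 10 were found among the 16906 genes of the table. Their values come from bulk RNA sequencing of luminal cells, the inner epithelial layer of the mammary ducts, sorted by flow cytometry from C57BL/6 mice 8 weeks old. The CKO library came from K8-CreERT2;miR-200c/141-flox/flox mice, in which tamoxifen switches on a Cre recombinase expressed from the keratin 8 promoter and so deletes the microRNA cluster in keratin 8 cells. The Ctrl library came from miR-200c/141-flox/flox mice, which received tamoxifen too but carried no Cre. The Cre driver and the deletion were present together in CKO and absent together in Ctrl, so what each contributes cannot be told apart. The labels give the time after tamoxifen as 4 weeks in one place and 3 days in another, about 20000 cells were harvested, and the number of mice is not stated. Each group has 1 library, so no difference below was checked against the spread between animals and no test across samples was possible. In bulk RNA, fewer cells of a type and less RNA per cell cannot be told apart.

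Notch receptors are single-pass membrane proteins that bind ligands of the Jagged and Delta-like families on neighbouring cells. Binding allows an ADAM protease and then the gamma-secretase complex to cut the receptor, and the released intracellular domain joins the protein of Rbpj and Mastermind-like coactivators on DNA, where genes of the Hes and Hey families are its best known targets. In the mammary gland the pathway is known for promoting the luminal fate in epithelial progenitors. The microRNA family that the deleted cluster belongs to has been linked to the pathway in human cancer cells. There JAG1 and the Mastermind-like genes MAML2 and MAML3 were reported as targets.

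Levels are given in FPKM, a unit that divides fragments by transcript length and library depth and that the deposited values follow. The log2 ratios are CKO over Ctrl after adding 0.5 FPKM to each value. Beside each ratio stands a 95% interval for the ratio of reads, by the exact Clopper-Pearson method, to which nothing was added. It rests on about 11400000 reads in CKO and 12500000 in Ctrl, both estimated from the authors' p-values. Reads per gene were not given, so they were estimated from the FPKM, the transcript length and these totals. All read numbers of genes below are such estimates. PCR copies of a molecule are counted as separate reads, so the intervals describe counting error alone. Genes averaging 1 FPKM or more over the libraries are called measured. A measured gene is called higher or lower in CKO where the ratio reaches 1.5-fold and the interval leaves out a ratio of 1.

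The cluster gives rise to miR-200c-3p and miR-141-3p, whose mature sequences are shown because their seeds define which messages they can pair with. Both lie on the minus strand of chromosome 6 in GRCm38.p6, miR-200c-3p at chr6:124718324-124718346 and miR-141-3p at chr6:124717917-124717938. Relatives encoded on chromosome 4, outside the deleted cluster, are shown beside them, and the capitals mark the seed, bases 2 to 8, in the RefSeq sequences.
miR-200c-3p: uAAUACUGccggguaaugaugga
miR-200b-3p: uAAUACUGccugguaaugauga
miR-429-3p: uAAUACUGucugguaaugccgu
miR-141-3p: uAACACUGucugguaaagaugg
miR-200a-3p: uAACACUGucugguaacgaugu
The miR-200c-3p seed is shared by miR-200b-3p and miR-429-3p, and the miR-141-3p seed by miR-200a-3p. The levels of these microRNAs were not analysed here.

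Messages pair with the seeds through the 7-mers CAGTATT (miR-200c-3p) and CAGTGTT (miR-141-3p). The search covered, for every gene, the 3' UTR of greatest length in GENCODE M21 (GRCm38), and 3 of the 10 Notch genes held 1 match each. Those sites are shown, with the 7-mer in capitals, since they are the places where these genes could meet the cluster's products by this criterion.
Notch1, miR-141-3p 7-mer at chr2:26458846-26458852, minus strand, exon 34 of 34: ccagtcgtgagtctgcaggctcCAGTGTTc
Notch2, miR-141-3p 7-mer at chr3:98150029-98150035, plus strand, exon 34 of 34: atagaaatgaaccaaaggtgttCAGTGTTc
Jag2, miR-200c-3p 7-mer at chr12:112907992-112907998, minus strand, exon 26 of 26: ggtttccctcccgggacggcggCAGTATTg
At none of the 3 sites was the next base an A, the base that often follows a strong microRNA site. A match to either 7-mer was present in 30.1% of 11153 measured genes with an annotated 3' UTR, and in 3 of 10 Notch genes, so the share was near the background. The 1568-base UTR of mouse Jag1 held neither 7-mer, which says only that these letters are not in that window. The genes with a match had log2 ratios of -0.39 (Notch1), -0.31 (Notch2) and -0.04 (Jag2), and the interval of Jag2 includes a ratio of 1. A log2 ratio below 0 was also found in 5 of the 6 measured Notch genes without a match and in 54.8% of all measured genes.

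Of the 10 genes, Hey1 alone was counted as different between the libraries, at 3.36 FPKM in CKO and 6.94 FPKM in Ctrl. Expression of Notch1, Notch2 and Notch3 was modestly lower in CKO, by 19.3% to 24.3%, which is under the 1.5-fold rule. Jag1, Jag2, Dll1, Rbpj and Hes1 had intervals that include a ratio of 1, and Notch4 was scarcely expressed. Across the 9 measured genes, 1 was lower and 0 were higher, where 3.03% of all 11667 measured genes were lower and 2.29% higher by the same rule. The median log2 ratio of the 9 was -0.10, and that of all measured genes -0.03. With 1 gene past the rule, the count says little about the group as a whole.

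**Figure D1:**
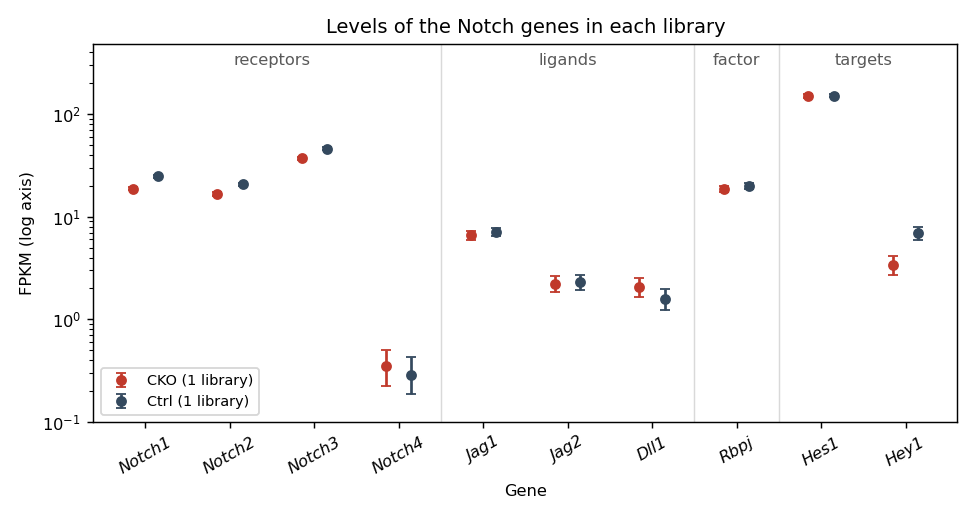
FPKM of each Notch gene on a log axis, with CKO (red) left of Ctrl (dark), 1 library each; bars are 95% exact Poisson intervals for counting error only. Hes1 is the highest gene in both libraries at 150.35 FPKM in CKO and 150.75 in Ctrl, Notch4 the lowest, and Hey1 shows the widest gap between libraries.

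Hey1 (Entrez gene 15213, chr3:8663359-8667256, minus strand) encodes a basic helix-loop-helix repressor. Its levels rest on about 85 reads in CKO and 192 in Ctrl. They are 2.07-fold lower by the deposited values, and the log2 ratio was -0.95 with an interval of -1.43 to -0.67. Among all measured genes 0.669% had a lower ratio. The authors' deposited table also calls Hey1 lower, with a false discovery rate of 2.85e-07 that compares the reads of 1 library with the other and not the conditions. That table calls 0.639% of its 16906 genes Down. With 0.5 FPKM added the Hey1 ratio falls just short of 2-fold, so a 2-fold rule counts none of the 10 genes.

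Hes1 (Entrez gene 15205, chr16:30064384-30067796, plus strand) encodes a related repressor and is the target most often used to read Notch activity. It was at 150.35 FPKM in CKO and 150.75 FPKM in Ctrl, with 2437 and 2670 estimated reads in CKO and Ctrl. The log2 ratio was -0.00 and its interval, -0.08 to 0.08, is narrow. This interval does not overlap that of Hey1, so these targets differed in their ratios beyond counting error. Hes1 exceeded 97.4% of all genes in CKO and 97.6% in Ctrl. Its small ratio changes sign with the scaling, from -0.07 after a length correction to 0.03 after a trimmed-mean scaling. Of the summed FPKM of both targets, Hey1 made up 2.19% in CKO and 4.40% in Ctrl.

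Notch3 (Entrez gene 18131, chr17:32120820-32166852, minus strand) was the most abundant receptor gene, at 37.10 FPKM in CKO and 46.00 FPKM in Ctrl. Its log2 ratio was -0.31 with an interval of -0.37 to -0.25, from about 3385 reads in CKO and 4584 in Ctrl. Notch1 (Entrez gene 18128, chr2:26457903-26516663, minus strand) was at 18.78 FPKM in CKO and 24.80 FPKM in Ctrl, with a log2 ratio of -0.39 (-0.48 to -0.32). The receptor gene Notch2 (Entrez gene 18129, chr3:98013527-98150361, plus strand) was at 16.49 FPKM in CKO and 20.57 FPKM in Ctrl, with a log2 ratio of -0.31 (-0.40 to -0.24). All 3 stood lower in CKO by similar amounts, with intervals that leave out a ratio of 1 and overlap each other. Among the 9 measured Notch genes, 4 intervals lay wholly below a ratio of 1, as did those of 23.7% of all measured genes, and 0 lay wholly above it, against 16.5% of all.

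The summed FPKM of the 4 receptor genes was 72.72 in CKO and 91.66 in Ctrl, and their pooled reads gave a log2 ratio of -0.34 (-0.38 to -0.29). The shares of the receptors in that sum were close in the libraries. Notch3 held 51.0% of the receptor FPKM in CKO and 50.2% in Ctrl, Notch1 25.8% in CKO and 27.1% in Ctrl, and Notch2 22.7% in CKO and 22.4% in Ctrl. Notch4 (Entrez gene 18132, chr17:34564268-34588503, plus strand), best known from blood vessels, was at 0.35 FPKM in CKO and 0.29 FPKM in Ctrl, from 26 and 24 reads in CKO and Ctrl. A difference in Notch4 was not detectable at this depth, since its interval ran from -0.61 to 1.11.

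**Figure D2:**
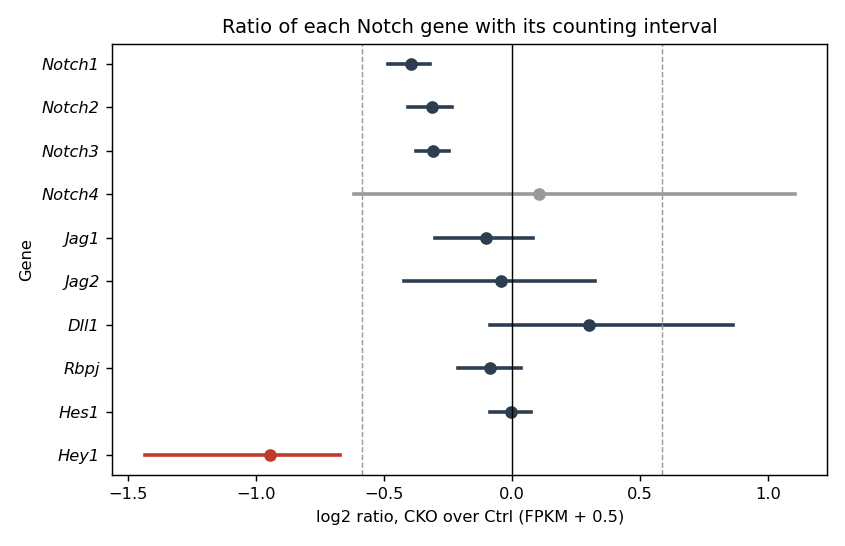
log2 ratio of CKO over Ctrl for each Notch gene (points, FPKM + 0.5) with the 95% counting interval of the read ratio (lines); dashed lines mark 1.5-fold, and Notch4 (grey) is under the mean of 1 FPKM. Hey1 (red) lies past the dashed line at -0.95, Notch1, Notch2 and Notch3 lie between -0.39 and -0.31, and the other intervals cross 0.

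Long transcripts as a group were lower in CKO, and the receptor genes are among the longest. With measured genes ranked by length into 10 deciles, the median log2 ratio was 0.11 in the shortest decile and declined from decile to decile to -0.20 in the longest, which holds 1167 genes of 6003 to 22989 bases. Notch1 (9497 bases), Notch2 (10506 bases) and Notch3 (7969 bases) all belong to that decile, where 84.8% of genes had a log2 ratio below 0 and 62.6% an interval wholly below a ratio of 1. Within it 14.7% of genes had a lower ratio than Notch1, 25.2% than Notch2 and 25.4% than Notch3. Minus the median of that decile, a correction chosen after the data were seen, the log2 ratios were -0.19 for Notch1 and -0.11 for both Notch2 and Notch3. The part of transcript length in the receptor ratios was not tested beyond this. Hey1, at 2215 bases, lies in a decile with a median of 0.02, where 1.03% of 1167 genes had a lower ratio.

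**Figure D3:**
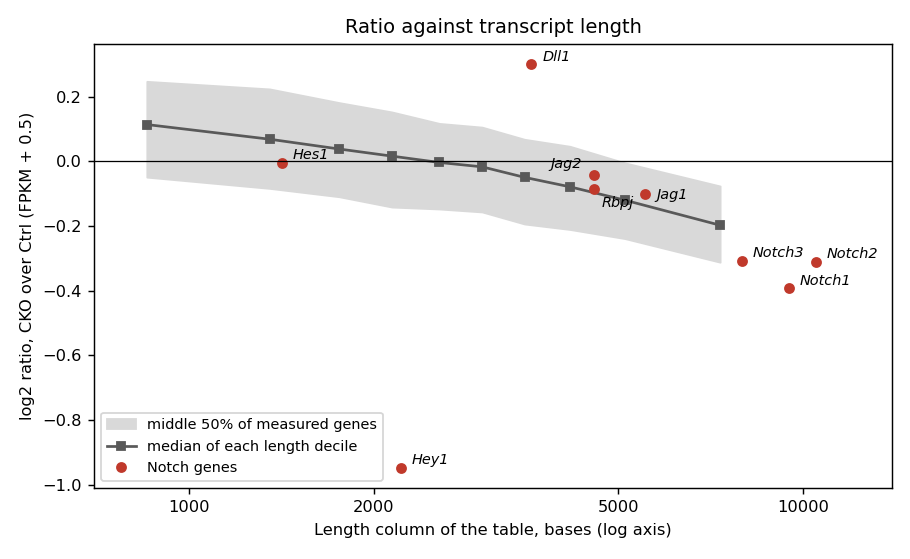
log2 ratio of CKO over Ctrl (FPKM + 0.5) against the table's length column in bases (log axis); squares are medians of measured genes in 10 length deciles, the grey band their middle 50%, and red points the 9 measured Notch genes. The median declines with length to -0.20, Notch1, Notch2 and Notch3 sit at the long end, and Hey1 lies far below the band at its length.

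The ligand genes were expressed at lower levels than the receptor genes other than Notch4, and none had an interval that leaves out a ratio of 1. Jag1 (Entrez gene 16449, chr2:137081456-137116644, minus strand) led them at 6.57 FPKM in CKO and 7.08 FPKM in Ctrl, with a log2 ratio of -0.10 (-0.30 to 0.08). The second Jagged gene, Jag2 (Entrez gene 16450, chr12:112907819-112929776, minus strand), was at 2.21 FPKM in CKO and 2.29 FPKM in Ctrl, a log2 ratio of -0.04 (-0.42 to 0.32). Both Jagged ratios turn slightly positive, to 0.02 and 0.04, after the length correction. Dll1 (Entrez gene 13388, chr17:15367354-15376872, minus strand), a Delta-like ligand gene associated with basal cells and stem cells of the gland, was at 2.05 FPKM in CKO and 1.57 FPKM in Ctrl. From 85 reads in CKO and 71 in Ctrl its log2 ratio was 0.30 (-0.08 to 0.86), so a difference was not detectable at this depth. The summed ligand FPKM was 10.83 in CKO and 10.94 in Ctrl, a log2 read ratio of -0.04 (-0.20 to 0.12).

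Rbpj (Entrez gene 19664, chr5:53466152-53657362, plus strand) encodes the DNA-binding partner of the cut receptor. It was at 18.67 FPKM in CKO and 19.84 FPKM in Ctrl, with a log2 ratio of -0.09 (-0.21 to 0.04). The core motif of its protein, TGGGAA or its reverse complement TTCCCA, was present in 2 of 10 promoter windows of 8 Notch genes, from 250 bases before to 50 after the start in RefSeq (GRCm38.p6). Those 2 are overlapping windows of Rbpj itself, and 25.6% of 32851 such windows of all genes hold the motif. Promoters of Hes1 and Hey1 were not used here.

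By level the genes ran in almost the same order in the libraries. In CKO the order was Hes1, Notch3, Notch1, Rbpj, Notch2, Jag1, Hey1, Jag2, Dll1 and Notch4. The Poisson intervals of Notch1 and Rbpj overlapped in CKO, as did those of Jag2 and Dll1. In Ctrl, Notch2 stood above Rbpj, and the overlapping neighbours were Notch2 and Rbpj, Jag1 and Hey1, and Jag2 and Dll1. Hey1 and Jag1 thus did not differ beyond counting error in Ctrl, while in CKO Hey1 lay below Jag1. The genes nearest to Hey1 over its levels in both libraries were Olfm4, Cda and Foxj1, at 3.55, 3.04 and 3.36 FPKM in CKO and 6.53, 7.23 and 6.20 FPKM in Ctrl, a likeness that rests on 2 libraries.

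**Figure D4:**
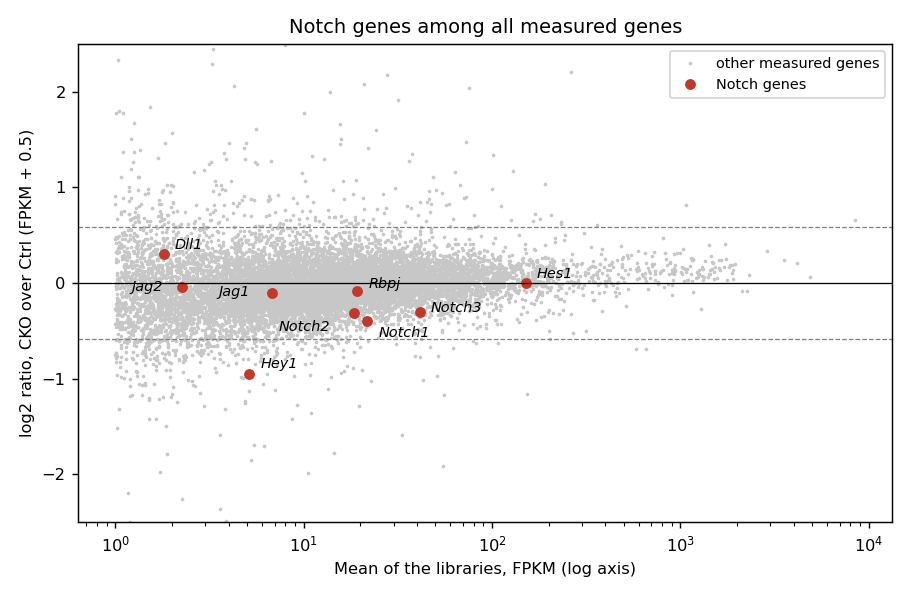
log2 ratio of CKO over Ctrl (FPKM + 0.5) against the mean FPKM of the libraries (log axis) for 11667 measured genes (grey) and the 9 measured Notch genes (red); dashed lines mark 1.5-fold, and 24 genes beyond 2.5 on the log2 scale are off the axis. Hey1 is the only Notch gene past a dashed line, and the others lie within the grey cloud.

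Of 67 further pathway genes, on lists chosen with earlier results of these data known, 65 were in the table and 55 were measured. Among these 2 were higher in CKO (Psen2 and Ccnd1) and 2 lower (Dll4 and Neurl1a), where 5.32% of all measured genes passed in either direction. Their median log2 ratio was -0.02, against -0.03 for all measured genes. Hes2 and Hes5 were not analysed here.

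Among other ligand genes, Dll4, which is best known from endothelial cells, was at 0.93 FPKM in CKO and 1.69 FPKM in Ctrl. Its log2 ratio was -0.61 (-1.46 to -0.26) from 37 reads in CKO and 73 in Ctrl, and it no longer passes with 1 FPKM added (in place of 0.5), after the length correction or with a minimum mean of 5 FPKM. The remaining ligand genes Dll3, Dlk1 and Dlk2 were under 1 FPKM in both libraries. Of 10 endothelial markers 9 were measured, with 0 higher and 1 lower, where 2.29% of all measured genes were higher and 3.03% lower. The lower one was Flt1, at 1.37 FPKM in CKO and 2.32 FPKM in Ctrl, a log2 ratio of -0.59. Of the 9 measured, 3 had a log2 ratio below 0 and 6 above. The summed FPKM of the 10 was 40.76 in CKO and 38.24 in Ctrl. None of the 10 was without reads in either library. The part of endothelial cells in the values of Dll4 and Notch4 was not tested.

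Genes that modify and cut the receptors gave 1 call. Psen2, which encodes a catalytic subunit of gamma-secretase, was at 9.22 FPKM in CKO and 5.78 FPKM in Ctrl, a log2 ratio of 0.63 (0.36 to 0.99). Adam10, the gene of the protease that makes the first ligand-induced cut, was at 74.52 FPKM in CKO and 90.82 FPKM in Ctrl, a log2 ratio of -0.28 (-0.35 to -0.23) that does not reach 1.5-fold. Adam10 was chosen after its values were seen. Of 9 cleavage genes 1 was higher and 0 lower, with a median log2 ratio of 0.02, but the related genes Aph1b and Aph1c may share reads. Of 5 measured glycosylation and maturation genes 0 passed and the median was -0.04. By the mean of the libraries the most abundant of these were Furin (61.29 FPKM in CKO and 63.16 in Ctrl), Rfng (10.87 in CKO and 9.75 in Ctrl) and Pofut1 (5.81 in CKO and 6.20 in Ctrl), which encode a processing protease, a fringe-family sugar transferase and the enzyme that adds O-fucose to the receptor.

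Regulators of ubiquitination and endocytosis, 12 measured, had 0 higher and 1 lower member and a median log2 ratio of 0.00. The lower one, Neurl1a, a neuralized-family ubiquitin ligase gene, was at 2.57 FPKM in CKO and 4.65 FPKM in Ctrl, a log2 ratio of -0.75 (-1.19 to -0.51), and falls under a minimum mean of 5 FPKM. Mib1, whose protein is the main ligase that activates Notch ligands, was chosen after its values were seen. It was at 9.97 FPKM in CKO and 13.40 FPKM in Ctrl, with a log2 ratio of -0.41 (-0.58 to -0.28).

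Nuclear partners of the cut receptor showed 0 calls among 8 measured coactivator and 15 measured corepressor genes, with medians of -0.04 and -0.03. By the same mean the most abundant coactivator genes were Snw1 (44.16 FPKM in CKO and 45.37 in Ctrl), Maml1 (18.79 in CKO and 19.26 in Ctrl) and the acetyltransferase gene Ep300 (15.69 in CKO and 20.97 in Ctrl). Likewise the most abundant corepressor genes were Aes (170.35 FPKM in CKO and 184.24 in Ctrl), the deacetylase gene Hdac1 (81.09 in CKO and 82.53 in Ctrl) and Ctbp1 (75.28 in CKO and 75.36 in Ctrl). Maml2 and Maml3, chosen for the reports of their human counterparts as microRNA targets and after their values were seen, had ratios of opposite sign. Maml2 was at 3.89 FPKM in CKO and 3.14 FPKM in Ctrl, a log2 ratio of 0.27 (0.06 to 0.56), and its 3' UTR holds 2 matches to the miR-141-3p 7-mer. Those sites are shown for comparison with the sites of the Notch genes, with the 7-mer in capitals.
Maml2, chr9:13707409-13707415, plus strand, exon 5 of 5: aaacatggccacgaatgaccagCAGTGTTg
Maml2, chr9:13708629-13708635, plus strand, exon 5 of 5: tgtgtctccccattatacaaaaCAGTGTTt
Maml3 held neither 7-mer, and it was at 8.13 FPKM in CKO and 10.29 FPKM in Ctrl, a log2 ratio of -0.32 (-0.49 to -0.19). Both belong to the longest length decile, and minus its median the log2 ratios were 0.47 for Maml2 and -0.13 for Maml3. Matches were found with ratios of either sign. Among pathway genes with 2 or more matches, the log2 ratio was 0.27 for Maml2 and 0.01 for L3mbtl3. It was -0.41 for Mib1, -0.11 for Aes, and -0.03 for both Maml1 and Fbxw7. The log2 read ratio implied by the deposited p-value differed for Fbxw7 (-0.23, outside its counting interval of -0.21 to 0.15) and Mib1 (-0.30). Of 55 measured pathway genes, 36.4% held a match to either 7-mer, against 30.1% of 11153 measured genes. The median 3' UTR was 1488 bases in the pathway genes and 1166 bases in all of these. The part of the matches in the ratios was not tested.

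Among other genes of the Hes and Hey families and reported targets of Notch, listed together, 5 were measured. Of these 1 was higher and 0 lower, with a median log2 ratio of 0.15. Their log2 ratios were all above 0, as were those of 5231 of 11667 measured genes. The intervals of 3 of the 5, Myc, Ccnd1 and Cdkn1a, lay wholly above a ratio of 1, as did those of 16.5% of all measured genes. The intervals of Nrarp and Hes6 (-0.26 to 0.51) included a ratio of 1. Nrarp, a feedback inhibitor of the pathway and one of its most direct targets, was at 7.62 FPKM in CKO and 7.14 FPKM in Ctrl, a log2 ratio of 0.09 (-0.18 to 0.37). The cyclin D1 gene Ccnd1, which answers to many other signals, had a log2 ratio of 0.70 and was the one higher. Close relatives of Hey1 were too weakly expressed to compare: Heyl was at 0.67 FPKM in CKO and 0.86 FPKM in Ctrl, with an interval of -1.03 to 0.30, and Hey2 had 1 read in CKO and 3 in Ctrl. Nrarp, Hes6, Myc, Cdkn1a, Heyl and Hey2 were chosen after their values were seen.

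**Figure D5:**
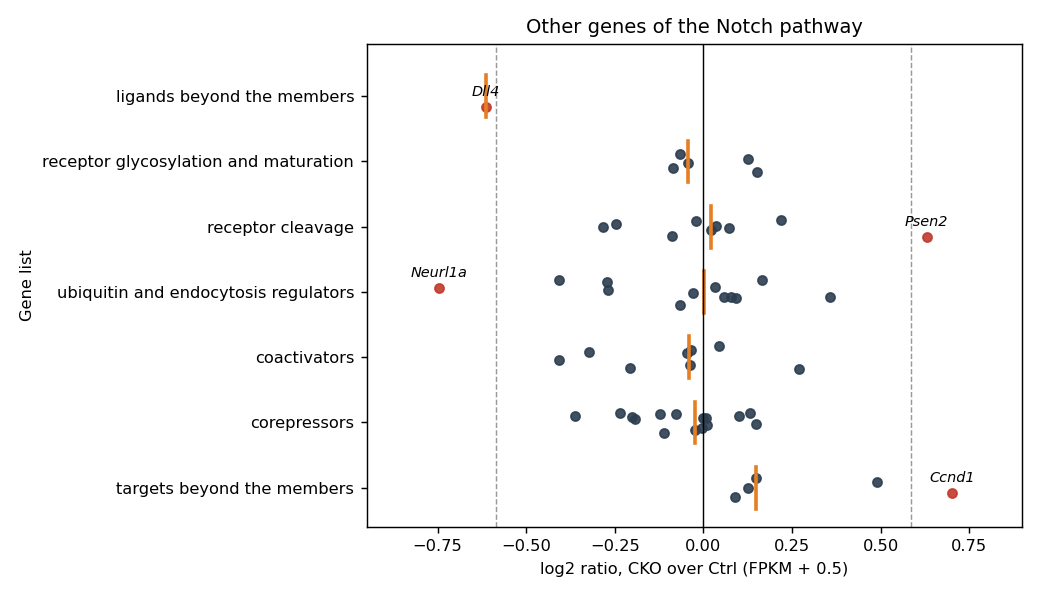
log2 ratio of CKO over Ctrl (FPKM + 0.5) for the 55 measured genes of the other Notch pathway lists, 1 point per gene with a vertical scatter added for legibility; orange bars are list medians and dashed lines mark 1.5-fold. Psen2 and Ccnd1 lie past 1.5-fold on the CKO side, Neurl1a and Dll4 on the Ctrl side, and the rest lie between.

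The sorted cells carried luminal markers at high levels, with a summed FPKM of 20176.7 in CKO and 15542.8 in Ctrl for 6 luminal genes. Of these 1 was higher, Krt18, at 10398.4 FPKM in CKO and 6606.79 FPKM in Ctrl, and 0 were lower. Of 9 measured basal markers 7 were higher in CKO and 1 was lower. Among all measured genes, 2.29% were higher and 3.03% lower by the same rule. The lower basal marker was Trp63, at 1.05 FPKM in CKO and 2.96 FPKM in Ctrl. The sum over 10 basal markers was 293.55 FPKM in CKO and 160.64 in Ctrl. Luminal progenitor markers, 6 measured, had 1 higher (Cxcl1) and 1 lower (Tspan8), with sums of 847.13 FPKM in CKO and 690.86 in Ctrl. Their log2 ratios were below 0 in 3 and above 0 in 3. Cxcl1 alone was at 180.21 FPKM in CKO and 79.5 FPKM in Ctrl. The 6 hormone-sensing luminal markers had 0 higher and 1 lower (Prom1), with sums of 482.00 FPKM in CKO and 540.78 in Ctrl. Their log2 ratios were below 0 in 4 and above 0 in 2. Prlr alone was at 177.09 FPKM in CKO and 217.83 FPKM in Ctrl. Leukocyte markers had 1 higher of 5 measured and sums of 54.95 FPKM in CKO and 33.67 in Ctrl, with Cd3e at 0 reads in CKO. The higher one, Cd74, made up most of these sums, at 34.79 FPKM in CKO and 17.98 FPKM in Ctrl. Pericyte markers summed to 4.04 FPKM in CKO and 4.29 in Ctrl, and fibroblast markers to 42.56 in CKO and 40.29 in Ctrl, with 0 calls among 1 and 4 measured. The part of these shifts in the Hey1 and receptor values was not tested.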

How the data were processed

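Per the submitters' processing notes, HISAT, Bowtie2, RSEM and the mm10 build were used, with versions not given in the sources used here. The deposited table has 1 expression value per gene and library with no stated unit. Multiplied by the table's length column in kilobases, the values sum to 999909 in CKO and 999609 in Ctrl, so these deposited values were read as FPKM; 0.01 is the lowest. The deposited log2 fold change is the log2 ratio of those columns. The deposited p-value follows a 2-sided negative binomial comparison of the reads of 1 library with the other. This form arises from Poisson counts and holds no term for spread beyond counting error. Genes without reads in 1 library therefore gave the share of CKO in all reads (0.478). A fit to 10798 p-values gave the read totals, with a median difference of 0.0585 on the log10 scale. The plan allowed for counts, and the table has none, so FPKM with 0.5 added was used without further scaling. With 1 library per group there is no test.

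The 10 members, the lists and the rules were chosen with earlier results of these data known. By rule the named genes are all members, the genes passing the rule in each list or otherwise the 3 most abundant, and the 3 genes nearest to a passing member. The remaining genes in the text were picked with their values in view. Alternatives covered the added constant, scaling, minimum, fold, interval, length and the deposited p-value. The estimation was tested on simulated data made with the same p-value formula. That test cannot show whether the deposited p-values follow the formula. Python 3.11.15, numpy 2.4.6, pandas 2.3.3 and scipy 1.17.1 were used. Mir200c and Mir141 themselves are not analysed here.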

Additional observations from a re-analysis of the deposited data

How the results depend on the processing

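Hey1 was counted as lower under every alternative tried except the 2-fold rule, with a log2 ratio of -1.03 to -0.86. At 2-fold, 0 of the 10 Notch genes, 0 of the other pathway genes and 153 of all genes passed, against 1, 4 and 621 at 1.5-fold. With a minimum mean of 5 FPKM, 2 pathway genes and 260 of all genes passed, which drops weakly expressed genes by construction. Of 70 values of single Notch genes under the alternatives, 67 stayed inside their counting interval and 3 moved: Notch1, Notch2 and Notch3 after the length correction, which was chosen after the data were seen. No paired analysis was possible because each group has 1 library, and for the same reason no library could be left out. Depth limits the ratios of Hey1 (85 reads in CKO), Dll1, Notch4 and Dll4, which had under 100 reads in at least 1 library.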
